A study of Mus musculus with 8 samples.

Results

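The insulin-like growth factor (IGF) receptors and binding proteins were followed at the RNA level in cultured mouse embryonic kidneys. The members are *Igf1*, the receptors *Igf1r* and *Insr*, and the binding proteins *Igfbp1* to *Igfbp7*. They were taken as the rows of the count table that carry these gene names, which gave 10 of 30890 genes. RNA was sequenced from 8 kidney samples of C57BL/6 embryos at embryonic day E12.5. The 4 samples of the DMSO group were cultured with the solvent at 0.1% and the 4 samples of the CHIR99021 group with the compound at 5 µM, each for 72 h. CHIR99021 inhibits the kinase GSK3 and thereby activates Wnt/β-catenin signaling. All 8 kidneys grew on filters floating on a medium that held insulin, transferrin and selenium, so insulin was supplied to both groups. By the study's methods each embryo gave its left kidney to DMSO and its right kidney to CHIR99021, and the study left out kidneys whose usual Wnt target genes did not respond.

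IGF1 and IGF2 are secreted growth factors that act through the receptor tyrosine kinase IGF1R, and insulin acts mainly through the related INSR. Most of either growth factor outside cells is held by IGF binding proteins, which limit or prolong its access to the receptors and are themselves cut by dedicated proteases. In the developing kidney the ligands come largely from mesenchyme and stroma, and IGF signaling supports growth of the organ. IGFBP7 binds IGFs more weakly than the other 6 binding proteins do.

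The summed counts ran from 14599082 to 17751992 per DMSO sample and from 14616300 to 16872129 per CHIR99021 sample. Markers of nephron progenitors (468 to 581 CPM, the counts scaled to a common library size, summed over 6 genes) and of ureteric epithelium (238 to 265 CPM over 6 genes) were present in every DMSO sample. All 5 Wnt target genes checked were higher with CHIR99021, by log2 fold changes of 2.90 to 7.53, but the kidneys had been chosen on such genes. DMSO replicates 2 and 4 stood apart by liver transcripts: the summed CPM of 6 hepatocyte markers was 52.3, 1299, 6.33 and 925 in DMSO replicates 1 to 4 and 1.25 to 7.49 in the CHIR99021 group. DMSO replicate 4 also stood apart by its macrophage markers, with 57.1 CPM summed over 7 genes against 207 to 218 in the other DMSO samples and 25.2 to 45.6 with CHIR99021. Results that rest on these libraries are given with and without them.

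In the authors' build GRCm38 the members lie at 8 places in the genome, since 2 pairs of binding protein genes are neighbours. *Igf1* (ENSMUSG00000020053) lies on the plus strand at chr10:87858265-87937042. *Igf1r* (ENSMUSG00000005533) is at chr7:67952827-68233668 on the plus strand and *Insr* (ENSMUSG00000005534) at chr8:3122061-3279617 on the minus strand. *Igfbp1* (ENSMUSG00000020429, chr11:7197782-7202546, plus) and *Igfbp3* (ENSMUSG00000020427, chr11:7206086-7213923, minus) point towards each other with 3539 bases and no annotated gene between them. *Igfbp2* (ENSMUSG00000039323, chr1:72824503-72852474, plus) and *Igfbp5* (ENSMUSG00000026185, chr1:72857932-72874884, minus) are arranged in the same way, 5457 bases apart. *Igfbp4* (ENSMUSG00000017493) is at chr11:99041244-99054392 on the plus strand, *Igfbp6* (ENSMUSG00000023046) at chr15:102144362-102149511 on the plus strand, and *Igfbp7* (ENSMUSG00000036256) at chr5:77349240-77408041 on the minus strand. All 10 are protein-coding genes, and only *Igfbp7* shares exon bases with another gene (85 bases, 7.03% of its exon length, with *Polr2b* on the opposite strand).

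RefSeq promoter windows of build GRCm38.p6, from 250 bases before to 50 after a start site, were matched by symbol for 9 of the 10 members, and *Insr* was the one without a window. They were searched on both strands for the letters bound by the TCF/LEF factors of Wnt signaling (CTTTGAA or CTTTGAT) and for those of the insulin response element bound by FOXO factors (CAAAACA or CAAAATA). The Wnt letters were in 8.65% of all 32851 windows and, among the members, in that of *Igf1* alone, as CTTTGAA from base -186. The RefSeq start site of that window lies 2846 bases into the gene, and the bases before it belong to an annotated exon of *Igf1*, so they are not printed. The insulin response letters were in 10.2% of all windows and, among the members, in that of *Igfbp1* alone. There they occurred as CAAAACA on the plus strand from base -108 and as CAAAATA on the minus strand, read as TATTTTG, from base -97. The letters are a description of these windows only. The motifs were chosen after the values were seen, and *Igfbp1* was already known to be repressed by insulin in liver. Its match is therefore no independent result, also when set beside the share of all windows. The 3 stretches below run from 220 to 21 bases before the start site, 5′ to 3′ on the strand of the gene, and overlap no annotated exon. *Igfbp1* is shown for its matches, which are in capitals, and *Igfbp2* and *Igfbp5* because these neighbours differed in opposite directions between the groups. The stretches are chr11:7197567-7197766 (plus) for *Igfbp1*, chr1:72824260-72824459 (plus) for *Igfbp2* and chr1:72874886-72875085 (minus) for *Igfbp5*.
Igfbp1: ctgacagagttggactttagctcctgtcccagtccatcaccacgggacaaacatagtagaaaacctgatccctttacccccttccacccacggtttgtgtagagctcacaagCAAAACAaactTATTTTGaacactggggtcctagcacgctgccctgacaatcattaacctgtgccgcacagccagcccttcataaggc
Igfbp2: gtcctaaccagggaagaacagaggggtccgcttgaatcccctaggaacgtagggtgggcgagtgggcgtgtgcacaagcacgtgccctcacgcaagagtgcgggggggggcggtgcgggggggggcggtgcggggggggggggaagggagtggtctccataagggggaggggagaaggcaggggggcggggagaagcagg
Igfbp5: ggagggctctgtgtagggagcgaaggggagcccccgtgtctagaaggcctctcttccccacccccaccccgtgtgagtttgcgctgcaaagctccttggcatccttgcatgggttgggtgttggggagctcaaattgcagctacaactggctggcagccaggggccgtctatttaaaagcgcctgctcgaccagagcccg

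With CHIR99021, *Igfbp2* rose to 2.14 times its DMSO level and *Igfbp4* and *Igfbp7* rose by less, while *Igf1r*, *Insr*, *Igfbp1*, *Igfbp3* and *Igfbp5* fell. *Igf1* and *Igfbp6* did not pass the test. Levels of 1 gene are given as CPM after TMM scaling, and each comparison is edgeR's quasi-likelihood test, with p-values adjusted over 16723 genes and called under 0.05. All 10 members passed the filter on low counts. Of them 3 were called higher, against 23.7% of all genes tested, and 5 lower, against 25.0%. In either direction 8 of 10 were called, against 48.7% of all genes. Past an absolute log2 fold change of 1 there were 2 members, *Igfbp2* and *Igfbp1*, against 13.8% of all genes (4.65% higher and 9.16% lower). The groups did not overlap for 5 members, *Igf1r*, *Insr*, *Igfbp2*, *Igfbp5* and *Igfbp7*, a share close to the 46.1% of all genes (22.7% higher and 23.4% lower). The median log2 fold change was -0.21 over the members and -0.00293 over all genes, and the median of its absolute value was 0.48 over the members and 0.27 over all genes. Without DMSO replicates 2 and 4 the calls were 2 higher (*Igfbp2* and *Igfbp7*) and 3 lower (*Igf1r*, *Insr* and *Igfbp5*), against 38.2% of all genes in either direction. With replicates 1 and 3 of both groups alone they were 2 and 2, against 30.4%, and in the fit blocked by replicate number 3 and 4, against 50.7%. No member changed direction in any of the 20 alternative fits.

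**Figure D1:**
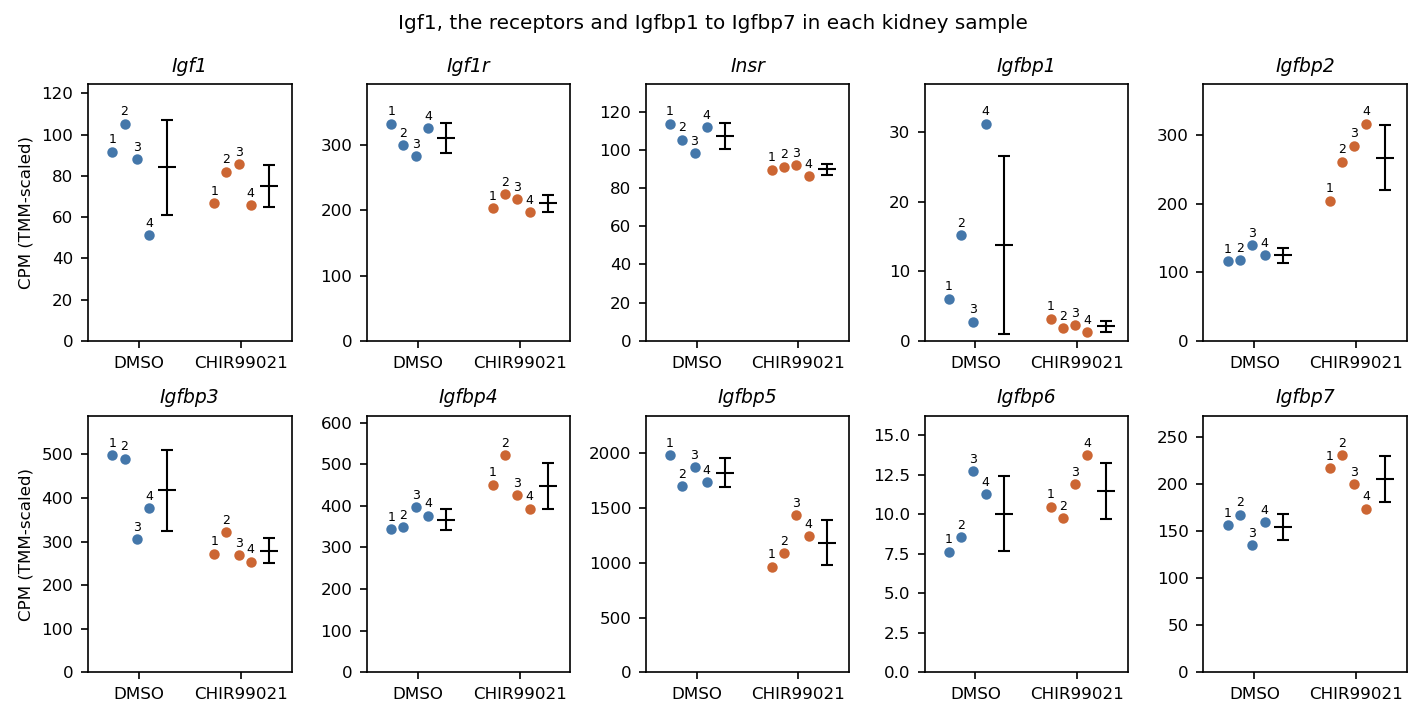
Level of each member in CPM (linear axis from 0) in the DMSO and CHIR99021 samples, with replicate numbers beside the points and the mean and SD (n = 4) as bars. The groups do not overlap for *Igf1r*, *Insr*, *Igfbp2*, *Igfbp5* and *Igfbp7*, and DMSO replicate 4 is the lowest sample for *Igf1* and the highest for *Igfbp1*.

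*Igf1*, the ligand among the members, was at 91.6, 105, 88.1 and 51.2 CPM in DMSO replicates 1 to 4. It was at 66.6, 82.1, 85.5 and 65.8 CPM in CHIR99021 replicates 1 to 4. DMSO replicate 4 was the lowest of all 8 samples, and the groups overlapped. The means were 84.1 ± 23.1 and 75.0 ± 10.3 CPM (SD, n = 4), a log2 fold change of -0.17 (SE 0.222) with an adjusted p of 0.575 in edgeR. Without DMSO replicate 4, the DMSO library with the lowest macrophage markers, the DMSO mean was 95.0 ± 9.07 (SD, n = 3) and the log2 fold change -0.35, with an adjusted p of 0.0207 in edgeR. Without DMSO replicates 2 and 4 it was -0.27, with an adjusted p of 0.0804 in edgeR. A call on *Igf1* therefore turned on 1 library. Every CHIR99021 sample was lower in macrophage markers than this library (25.2 to 45.6 against 57.1 CPM) and higher in *Igf1*. The part of the macrophage markers in the *Igf1* result was not tested.

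*Igf2*, the main fetal ligand and no member, exceeded *Igf1* per length in every sample. It was at 1360, 1341, 1394 and 1386 CPM with DMSO and at 914, 1207, 1205 and 1085 CPM with CHIR99021, without overlap, and fell by 0.31 on the log2 scale (SE 0.0781, adjusted p = 0.00513 in edgeR). Per length, the ratio of *Igf2* to *Igf1* FPKM (fragments per kilobase of gene, scaled to the depth of the sample) was 22.1 to 46.8 with DMSO and 23.8 to 28.6 with CHIR99021. In the annotation 64.5% of the exon bases of *Igf2* are shared with other genes, mostly with *Gm49394* on the same strand. The insulin genes *Ins1* and *Ins2* had 1 and 5 counts over the DMSO samples together and 0 over the treated ones, too few to test.

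Both receptors fell. *Igf1r*, the receptor of IGF1 and IGF2, was at 333, 299.8, 283 and 326 CPM in DMSO replicates 1 to 4. It was at 203, 224, 217 and 198 CPM in CHIR99021 replicates 1 to 4. Every treated sample was below every control. The means were 310.5 ± 23.1 and 211 ± 12.46 CPM (SD, n = 4), and *Igf1r* fell by 0.56 on the log2 scale (SE 0.0609, adjusted p = 8.24e-06 in edgeR). The call held in all 20 alternatives, with log2 fold changes of -0.70 to -0.53.

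*Insr*, the insulin receptor, was at 114, 105, 98.3 and 112 CPM with DMSO and at 89.6, 91.2, 92.0 and 86.0 CPM with CHIR99021. The treated samples again all lay below the controls, but by a smaller margin. The means were 107 ± 6.97 and 89.7 ± 2.64 CPM (SD, n = 4), and *Insr* fell by 0.26 on the log2 scale (SE 0.0540, adjusted p = 0.00157 in edgeR). With replicates 1 and 3 of both groups alone its log2 fold change was -0.22 with an adjusted p of 0.113 in edgeR. *Igf1r* was the more abundant receptor per length in every sample, at 2.33 to 2.40 times the *Insr* FPKM with DMSO and 1.86 to 2.01 times with CHIR99021. These ranges do not overlap. Single genes did so in CPM in 46.1% of cases, and no such share was computed for ratios of genes.

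Of the other receptors, *Igf2r*, which takes up IGF2 for breakdown, rose from 297 ± 13.8 to 387 ± 15.4 CPM (SD, n = 4; log2 fold change 0.38, adjusted p = 3.22e-05 in edgeR). *Insrr*, a receptor of the same family that senses alkaline pH, had 95 counts over the DMSO samples together and 9 over the treated ones, and fell by 3.15 on the log2 scale (adjusted p = 7.27e-05 in edgeR). Thus 1 receptor of the 4 was called higher and 3 lower, beside 23.7% and 25.0% of all genes tested, and the *Insrr* call rests on few counts. *Insrr* passed the filter on low counts only through its DMSO samples, so its direction is no independent result.

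*Igfbp2*, a binding protein of fetal tissues and fetal serum, was at 116, 118, 139.9 and 125 CPM in DMSO replicates 1 to 4. It was at 204, 261, 285 and 317 CPM in CHIR99021 replicates 1 to 4. The lowest treated sample was above the highest control. The means were 125 ± 10.9 and 267 ± 47.4 CPM (SD, n = 4), a log2 fold change of 1.10 (SE 0.129, adjusted p = 0.000139 in edgeR). The call held in all 20 alternatives, with log2 fold changes of 0.93 to 1.21.

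*Igfbp5*, its neighbour on chromosome 1 and a binding protein that also attaches to extracellular matrix, moved the other way. It was at 1983, 1698, 1871 and 1738 CPM with DMSO and at 964, 1088, 1438 and 1245 CPM with CHIR99021. The groups did not overlap, although the treated samples were more spread. The means were 1823 ± 129.9 and 1184 ± 204 CPM (SD, n = 4), and *Igfbp5* fell by 0.62 on the log2 scale (SE 0.112, adjusted p = 0.00110 in edgeR). The call held in all 20 alternatives, with log2 fold changes of -1.06 to -0.53. Within the 4 pairs of samples with equal numbers, the log2 ratio of treated to control was 0.82, 1.15, 1.02 and 1.34 for *Igfbp2* and -1.04, -0.64, -0.38 and -0.48 for *Igfbp5*, so the neighbours differed in opposite directions in each pair.

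*Igfbp3*, the main IGF carrier of adult serum, was at 498, 490.1, 305 and 376 CPM in DMSO replicates 1 to 4. It was at 273, 321, 269 and 254 CPM in CHIR99021 replicates 1 to 4. CHIR99021 replicate 2 was above DMSO replicate 3, so the groups overlapped. The means were 417 ± 93.2 and 279 ± 29.3 CPM (SD, n = 4), and *Igfbp3* fell by 0.58 on the log2 scale (SE 0.165, adjusted p = 0.0204 in edgeR). The call was lost in edgeR without CHIR99021 replicate 1 (adjusted p = 0.0615), replicate 3 (0.0546) or replicate 4 (0.0614), and without DMSO replicates 2 and 4 (0.0830), at log2 fold changes of -0.57 to -0.53. Endothelial markers, summed over 6 genes that were all called lower, were at 573, 563, 414 and 408 CPM in DMSO replicates 1 to 4 and at 158 to 214 CPM with CHIR99021. DMSO replicates 1 and 2 were thus the highest samples for both *Igfbp3* and this list. Among the DMSO samples they were also the highest for podocyte, early nephron and ureteric markers, so this is not particular to endothelium. Podocyte markers were at 143, 138.5, 89.7 and 123 CPM in DMSO replicates 1 to 4, and early nephron markers at 524, 494, 346 and 445 CPM. The part of any of these lists in the *Igfbp3* result was not tested.

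*Igfbp1*, a binding protein made mainly by liver and repressed there by insulin, had the widest spread among the DMSO samples relative to its mean. It was at 6.06, 15.2, 2.75 and 31.2 CPM in DMSO replicates 1 to 4. It was at 3.18, 1.81, 2.22 and 1.25 CPM in CHIR99021 replicates 1 to 4. DMSO replicates 4 and 2 were far above the rest, and DMSO replicate 3 lay below CHIR99021 replicate 1. The means were 13.8 ± 12.7 and 2.12 ± 0.816 CPM (SD, n = 4), and *Igfbp1* fell by 2.69 on the log2 scale (SE 0.831, adjusted p = 0.0346 in edgeR). The replicate number as a block gave a log2 fold change of -2.35 with an adjusted p of 0.105 in edgeR.

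The 2 DMSO samples with high *Igfbp1* were the 2 with high liver transcripts. Without them the DMSO mean was 4.41 ± 2.34 CPM (SD, n = 2) and the log2 fold change -1.07 (adjusted p = 0.0554 in edgeR), and with replicates 1 and 3 of both groups alone it was -0.70 (adjusted p = 0.228 in edgeR). Of the 6 hepatocyte markers, 2 passed the filter on low counts and both were called lower. *Alb*, the defining one, ran from 0.117 to 581 CPM over the DMSO samples and had no counts in CHIR99021 replicates 1 and 4. The *Igfbp1* call was also lost in edgeR without DMSO replicate 2 (adjusted p = 0.0678) and without any single CHIR99021 replicate (0.0640 to 0.0939), and without DMSO replicate 4 the log2 fold change was -1.92 (adjusted p = 0.0375).

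*Igfbp4*, a binding protein cut by the protease PAPP-A, was at 343, 348, 397 and 377 CPM in DMSO replicates 1 to 4. It was at 451, 522, 425 and 393 CPM in CHIR99021 replicates 1 to 4. CHIR99021 replicate 4 lay just below DMSO replicate 3. The means were 366 ± 25.2 and 448 ± 54.8 CPM (SD, n = 4), and *Igfbp4* rose by a log2 fold change of 0.29 (SE 0.0820, adjusted p = 0.0119 in edgeR). The call was lost without DMSO replicates 2 and 4, at 0.27 (adjusted p = 0.0765 in edgeR), and in limma on quantile-normalized log2 counts, at 0.08 (adjusted p = 0.530).

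*Igfbp7*, also known as a product of blood vessels, was at 156, 168, 135 and 159.7 CPM with DMSO and at 217, 231, 200.4 and 174 CPM with CHIR99021. All treated samples were above all controls. The means were 155 ± 13.8 and 206 ± 24.6 CPM (SD, n = 4), and *Igfbp7* rose by a log2 fold change of 0.41 (SE 0.0907, adjusted p = 0.00351 in edgeR). The rise stood beside lower endothelial markers in the same samples.

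*Igfbp6*, a binding protein that prefers IGF2, was at 7.63, 8.56, 12.7 and 11.3 CPM with DMSO and at 10.5, 9.77, 11.9 and 13.7 CPM with CHIR99021. The groups overlapped over most of their range. Its log2 fold change of 0.20 (SE 0.168) had an adjusted p of 0.366 in edgeR, and its adjusted p was 0.125 to 0.758 over the 20 alternatives.

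**Figure D2:**
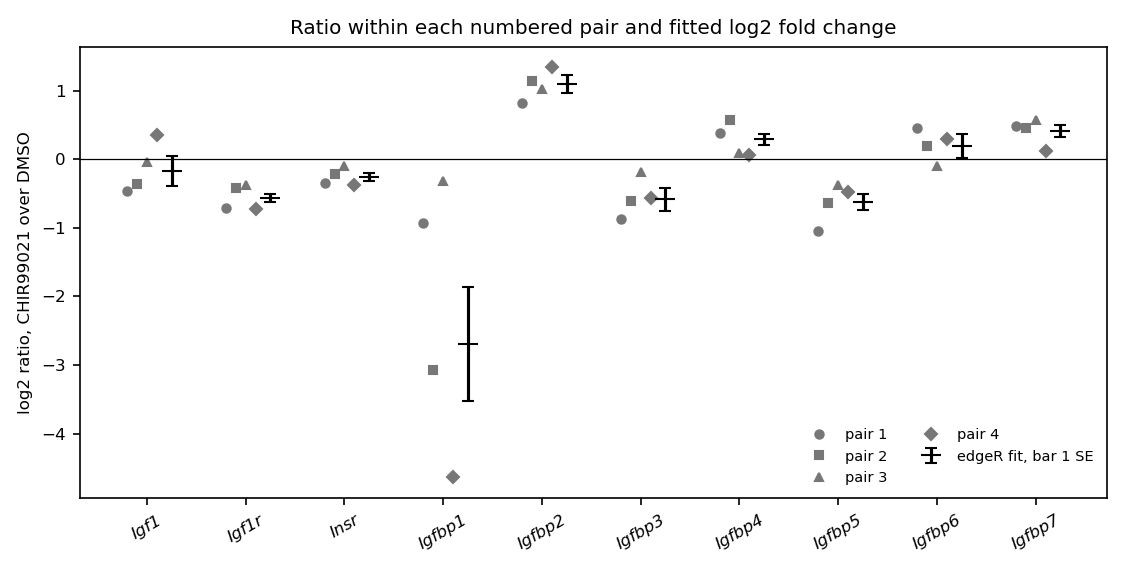
The log2 ratio of CHIR99021 to DMSO for each member (vertical axis) within each of the 4 pairs of samples with the same number (grey symbols) and as fitted by edgeR without the pairing (black bars, 1 SE). All 4 pairs lie on one side of 0 for *Igf1r*, *Insr*, *Igfbp1*, *Igfbp2*, *Igfbp3*, *Igfbp4*, *Igfbp5* and *Igfbp7*. The share of all genes for which this holds was not computed. The *Igfbp1* pairs run from -4.64 to -0.31, and *Igfbp4* is at 0.10 and 0.06 in pairs 3 and 4.

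Levels of different members were compared per length, as FPKM. In the DMSO group *Igfbp5* was the most abundant member, at 317 ± 23.0 FPKM (SD, n = 4), apart from all others. *Igfbp3* (139 ± 30.3) and *Igfbp7* (134 ± 11.2) came next and overlapped, followed by *Igfbp4* (86.8 ± 6.57) and *Igfbp2* (70.6 ± 6.69). *Igf1r* followed at 19.3 ± 1.37 FPKM, and *Igfbp1* (9.46 ± 8.74), *Igfbp6* (9.45 ± 2.28), *Igf1* (8.87 ± 2.42) and *Insr* (8.16 ± 0.497) came last, each overlapping the one before it. The place of *Igfbp1* rested on DMSO replicate 4, without which its mean was 5.46 ± 4.38 FPKM (SD, n = 3).

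In the CHIR99021 group *Igfbp5* (188 ± 33.0 FPKM), *Igfbp7* (162 ± 18.3), *Igfbp2* (138 ± 25.2), *Igfbp4* (96.5 ± 11.2) and *Igfbp3* (84.9 ± 8.39) each overlapped the next. *Igfbp2* thus ranked above *Igfbp3* there and below it with DMSO. *Igf1r* (11.9 ± 0.650) and *Igfbp6* (9.84 ± 1.57) came after them and overlapped, then *Igf1* (7.21 ± 0.967), *Insr* (6.21 ± 0.153) and *Igfbp1* (1.32 ± 0.506).

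The binding proteins were also taken as 1 pool, the summed FPKM of *Igfbp1* to *Igfbp7*. The sum was 802, 767, 739 and 759 FPKM in DMSO replicates 1 to 4 and 619, 704, 719 and 679 FPKM in CHIR99021 replicates 1 to 4. These ranges are apart in FPKM, which is scaled to raw depth, but with TMM scaling the sums were 733 ± 29.2 and 714 ± 46.4 CPM per kilobase (SD, n = 4) and the groups overlapped, so no difference in the size of the pool is drawn from them. Within the sum, the shares of the binding proteins were as follows. *Igfbp5* took 41.4 ± 2.81% of the pool with DMSO and 27.5 ± 3.64% with CHIR99021 (SD, n = 4). *Igfbp2* took 9.23 ± 1.16% and 20.2 ± 3.09%, and *Igfbp7* 17.5 ± 1.28% and 23.9 ± 3.30%. *Igfbp3* took 13.9 to 21.2% and 11.4 to 13.8% (lowest to highest). *Igfbp4* took 11.3 ± 1.21% and 14.2 ± 1.78%, and its groups overlapped (10.1 to 12.8% and 12.6 to 15.9%). *Igfbp6* and *Igfbp1* each took under 3% in every sample. The ratio of *Igfbp2* to *Igfbp5* FPKM was 0.190 to 0.243 with DMSO and 0.644 to 0.827 with CHIR99021. Shares of 1 sum depend on each other, so they describe the same values as the tests above.

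**Figure D3:**
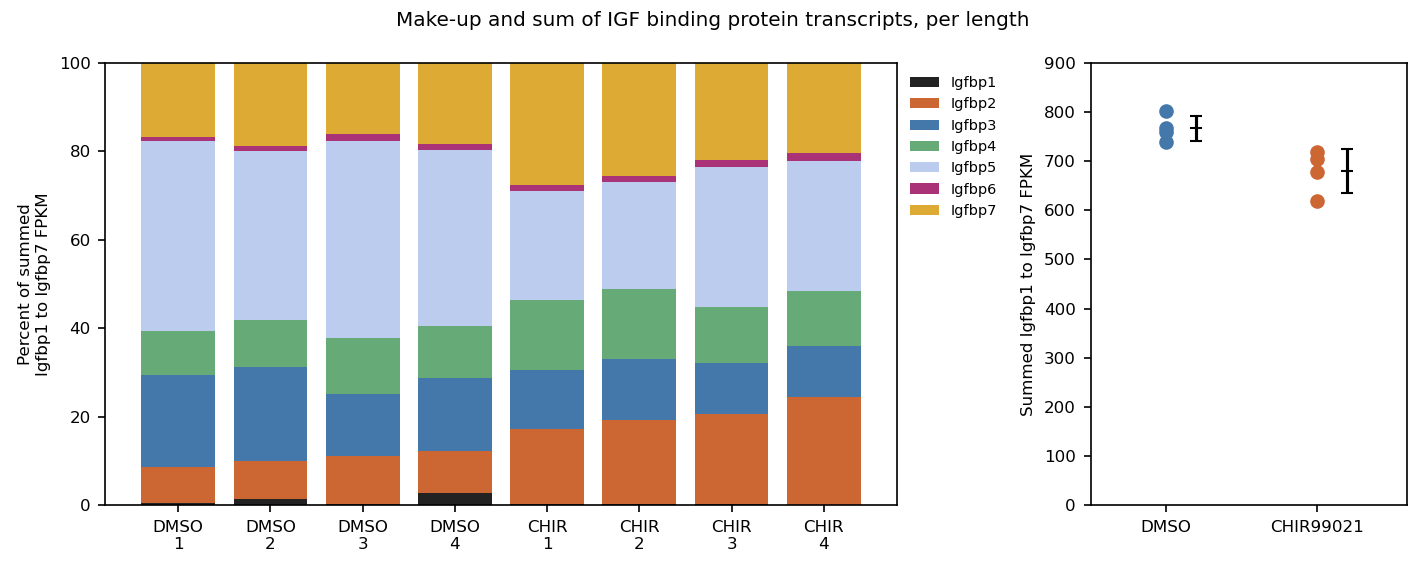
Left, percent of the summed FPKM of *Igfbp1* to *Igfbp7* taken by each binding protein in each sample (CHIR stands for CHIR99021, with the replicate number below); right, the sum itself in FPKM (raw depth, no TMM scaling) from 0, with points for samples and bars for mean and SD (n = 4). The *Igfbp5* share is 38.3 to 44.5% with DMSO and 24.3 to 31.8% with CHIR99021, and the *Igfbp2* share 8.16 to 10.8% and 17.0 to 24.3%.

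The kidneys held many cell types, and in such bulk samples fewer cells of a type and less RNA per cell cannot be told apart. Beside the lower *Igf1r*, *Insr* and *Igfbp5*, nephron progenitor markers were at 24.2 to 34.7 CPM with CHIR99021 against 468 to 581 CPM with DMSO (6 of 6 called lower), and ureteric markers at 114 to 120 against 238 to 265 CPM (4 of 6 lower). The ureteric difference was mostly *Calb1*, without which, as tried after its values were seen, the other 5 summed to 100.2 to 110.2 against 121 to 128 CPM. Beside the higher *Igfbp2*, *Igfbp4* and *Igfbp7*, the summed stromal markers were at 7202 to 8765 against 3695 to 4826 CPM, with 3 of 7 called higher and 3 lower. Most of this sum came from the collagens *Col1a1* (3891 to 4792 against 1454 to 2221 CPM) and *Col3a1* (2437 to 3082 against 1607 to 1980 CPM). These and *Pdgfra* were called higher, *Foxd1*, *Tcf21* and *Meis1* lower, and *Pdgfrb* was not called. Smooth muscle markers were at 213 to 301 against 51.9 to 147 CPM (2 of 3 tested higher). Most of their sum was *Acta2* (198 to 277 against 47.2 to 109 CPM), and *Myh11* was not called. Macrophage markers were 7 of 7 lower. Of the podocyte markers 1 was higher and 1 lower of 3 tested, of the early nephron markers 1 was higher and 3 lower of 4, and summed red blood cell markers overlapped, at 6.55 to 16.2 against 8.12 to 26.4 CPM. The part of these lists in the member results was not tested.

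**Figure D4:**
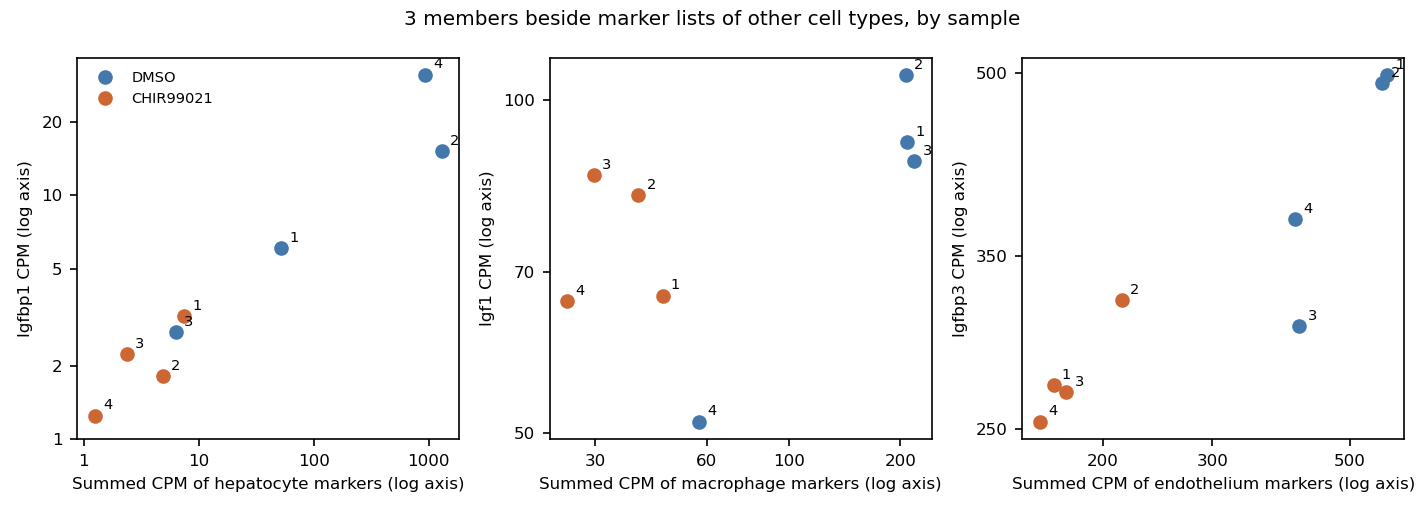
Level of 3 members in CPM (vertical, log axis) against the summed CPM of a marker list of another cell type (horizontal, log axis) in the 8 samples, with replicate numbers. *Igfbp1* is highest in DMSO replicates 4 and 2, which hold 925 and 1299 CPM of hepatocyte markers. *Igf1* is lowest in DMSO replicate 4, which holds 57.1 CPM of macrophage markers. Every CHIR99021 sample holds less of these markers (25.2 to 45.6 CPM) and more *Igf1*. *Igfbp3* is highest in DMSO replicates 1 and 2, which hold 573 and 563 CPM of endothelial markers. Among the DMSO samples these replicates are also highest for podocyte, early nephron and ureteric markers, not shown.

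Around the members, 64 pathway genes were grouped by role, of which 59 were tested, and 19 were higher and 18 lower. These shares of the genes tested stand beside 23.7% and 25.0% of all genes. Without DMSO replicates 2 and 4 the counts were 13 higher and 17 lower. In that fit 38.2% of all genes were called in either direction, against 48.7% in the main fit.

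The enzymes that cut binding proteins, with the stanniocalcins that inhibit some of them, counted 2 higher and 3 lower of 7. *Htra1*, a secreted protease of matrix and binding proteins, was at 3.73, 7.08, 9.90 and 7.92 CPM with DMSO and at 298, 338, 321 and 294 CPM with CHIR99021. It was thus 43.7 times higher, the largest difference among all members and pathway genes tested (5.46 on the log2 scale with an SE of 0.221, adjusted p = 6.02e-07 in edgeR). *Pappa2*, a protease of IGFBP3 and IGFBP5, was at 20.1, 19.2, 10.7 and 16.2 CPM with DMSO and at 2.31, 2.34, 1.51 and 1.45 CPM with CHIR99021, and fell by 3.11 on the log2 scale (adjusted p = 8.07e-07 in edgeR). *Pappa*, the protease of IGFBP4, fell from 24.3 ± 0.374 to 10.8 ± 2.19 CPM (log2 fold change -1.17, adjusted p = 6.3e-06 in edgeR). *Stc2*, an inhibitor of the *Pappa* and *Pappa2* proteases, fell from 103 ± 5.21 to 46.0 ± 7.60 CPM (log2 fold change -1.16, adjusted p = 5.31e-06 in edgeR). The protease genes *Pappa* and *Pappa2* and the inhibitor *Stc2* therefore fell together. *Igfals*, the serum partner of IGFBP3, and *Igfbpl1* did not pass the filter on low counts.

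Of 13 tested receptor substrates and adaptors, 5 were higher and 3 lower. *Socs2*, an inhibitor of growth hormone and cytokine signals that also binds the IGF1 receptor, rose from 12.7 ± 2.44 to 99.6 ± 16.7 CPM (SD, n = 4; log2 fold change 2.98, adjusted p = 1.01e-06 in edgeR). *Irs1*, the docking protein of both receptors, rose by a log2 fold change of 0.80 (adjusted p = 0.000160 in edgeR), and 30.9% of its exon bases are shared with a gene on the opposite strand. The adaptors *Sh2b2* (0.79) and *Shc1* (0.42) rose as well.

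Of 16 genes of the PI3K, AKT and FOXO arm, 6 were higher and 4 lower. *Pik3r1*, the regulatory subunit of PI3K, rose from 122 ± 4.62 to 252 ± 12.53 CPM (SD, n = 4; log2 fold change 1.05, adjusted p = 5.06e-09 in edgeR). The regulatory subunit *Pik3r3* rose by a log2 fold change of 0.66, with 24.3% of its exon bases shared with another gene, and the catalytic subunit *Pik3ca* fell by 0.29 on the log2 scale.

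Of 13 genes of the mTOR arm, which drives growth below AKT, 4 were higher and 4 lower. *Deptor*, an inhibitor that binds mTOR, fell from 37.5 ± 3.35 to 12.7 ± 1.39 CPM (SD, n = 4; log2 fold change -1.56, adjusted p = 4.85e-08 in edgeR). *Ddit4*, a stress-induced inhibitor of mTOR, rose by a log2 fold change of 0.55 and the inhibitor *Tsc1* by 0.31, and *Eif4ebp1*, a translation repressor, fell by 0.30 on the log2 scale. The *Tsc1* call was lost in limma on log2 FPKM (adjusted p of 0.0928 and 0.108 with the higher and the lower pseudocount), and the *Eif4ebp1* call in edgeR with replicates 1 and 3 alone (adjusted p = 0.228).

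In the growth hormone arm, which raises *Igf1* in liver, 1 gene was higher and 2 lower of 4. The receptor *Ghr* fell from 109 ± 7.99 to 50.9 ± 5.94 CPM (SD, n = 4; log2 fold change -1.10, adjusted p = 4.43e-07 in edgeR), the kinase *Jak2* rose by 0.93 on the log2 scale and the factor *Stat5b* fell by 0.65, while *Stat5a* was at -0.25 (adjusted p = 0.117). The RNA binding proteins *Igf2bp1*, *Igf2bp2* and *Igf2bp3*, which bind *Igf2* RNA, had log2 fold changes of 0.11, -0.08 and 0.19 and did not pass (adjusted p of 0.128 to 0.211 in edgeR, with 0 of 3 under an unadjusted p of 0.05). The direction of *Igf2bp1* turned with the scaling, to -0.02 in limma on log2 FPKM, and *Igf2bp2* was called lower in limma on log2 counts or log2 FPKM and in edgeR with upper-quartile scaling, at -0.22 to -0.13. *Igf2bp3* was called higher without CHIR99021 replicate 1, at 0.26 (adjusted p = 0.0329 in edgeR).

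**Figure D5:**
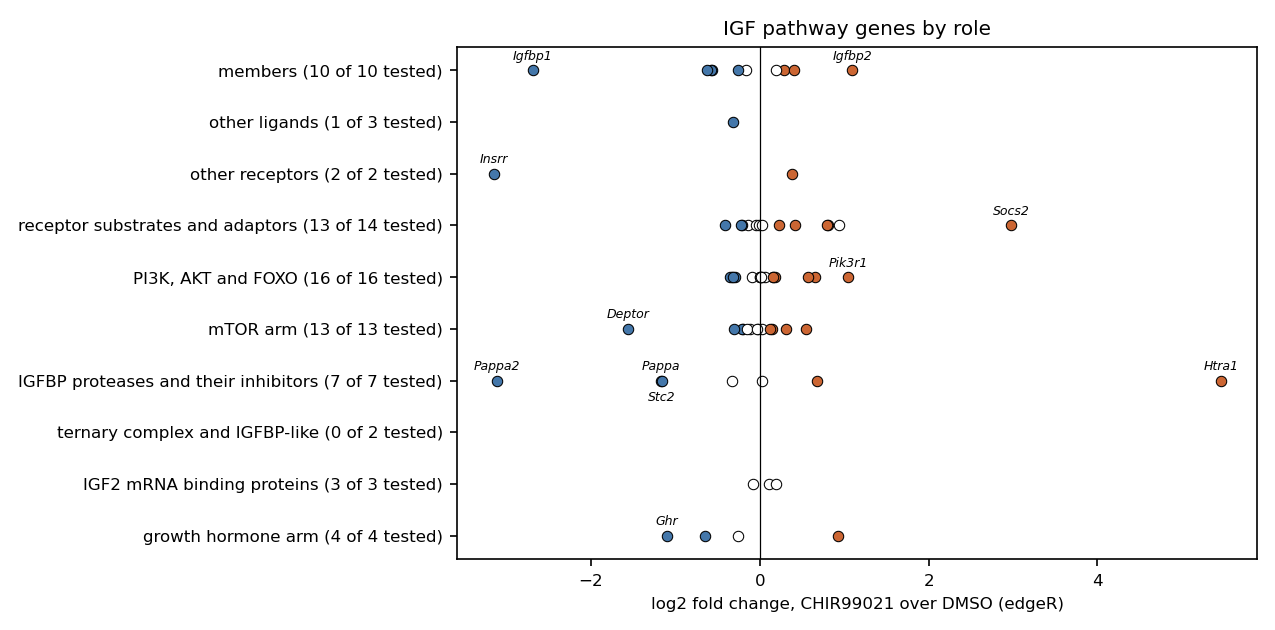
The log2 fold change of CHIR99021 over DMSO in edgeR (horizontal axis) for each tested member and pathway gene, in rows by role. Filled points have an adjusted p under 0.05 (orange higher, blue lower), open points do not, and names are given for called genes past an absolute log2 fold change of 1, from *Pappa2* at -3.11 and *Insrr* at -3.15 to *Htra1* at 5.46.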

How the data were processed

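RNA-seq libraries of 8 kidneys were assigned to DMSO or CHIR99021, 4 to each, from their titles. Reads were mapped by the authors to GRCm38 using HISAT2 2.0.5 (submitters' processing notes), and the deposited count per gene came from featureCounts. The strand setting of the counting was not found in the labels or methods. Deposited FPKM by the authors equal each count divided by a fixed length per gene and by the sample's summed counts in all 30890 genes (relative tolerance 1e-06). That length was solved from the count and FPKM of the gene's highest sample, so only its fit to the other samples was checked. The deposited columns of the authors' own comparison (fold, log2 fold, p-value, mean) were not used. The labels name Trizol and an NEBNext kit and the study's methods other kits.

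Counts were fitted in R 4.3.3 with edgeR 4.0.16 (filterByExpr at 10 counts and 15 in total, TMM, robust glmQLFit, glmQLFTest, Benjamini-Hochberg), which left 16723 genes. Alternatives used limma 3.58.1, DESeq2 1.42.0, other scalings and filters, FPKM with a pseudocount of 1 or 0.1, and left-out samples. Gene lengths were those behind the deposited FPKM, and gene positions were the deposited ones. Shared exon bases and the search for genes between neighbours came from GENCODE M21. For the members the lengths equal the exon bases there. The study's methods pair the left and right kidney of an embryo without tying replicate numbers to embryos. Equal numbers were taken as pairs for the ratios within pairs and the fit blocked by replicate number. Deviations from the group means correlated at 0.111 to 0.346 between equal numbers and at -0.180 to 0.0766 between unequal ones. The main fit did not use the pairing, so its p-values ignore it. Nothing in the labels says that samples came from separate animals, so p-values measure the spread between these samples. Depth was 14599082 to 17751992 counts per sample.

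Named were all 10 members, the other ligands and receptors, and up to 4 tested genes per pathway list with the smallest p, of which 1 is not reported here. Members and lists were chosen with earlier results of these data known, and the promoter motifs after the values were seen.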

Additional observations from a re-analysis of the deposited data

Results flagged for a closer look

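Over 40 genes, the members and the pathway genes of the naming rule with *Igfals* and *Igfbpl1*, 78 sets of 4 samples were checked. Of these, 4 held a sample far from the other 3, and chance alone flags about 1 in 20 such sets. *Ins1*, an insulin gene, was at 0.0586 CPM in DMSO replicate 3, which is 1 count, and at 0 in the other DMSO samples. *Pik3r1*, the regulatory subunit of PI3K, was at 115 CPM in DMSO replicate 4 and at 124 to 125 CPM in the other DMSO samples, and every CHIR99021 sample was above all of them. *Igfals*, the serum partner of IGFBP3, was at 0.469 CPM in DMSO replicate 3, which is 8 counts, and at 0.325 to 0.343 CPM in the other DMSO samples. *Igfbpl1*, an IGFBP-like gene, was at 2.01 CPM in CHIR99021 replicate 2, which is 30 counts, and at 0.263 to 0.437 CPM in the other CHIR99021 samples. None of the 10 members was among the 4.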

How the results depend on the processing

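*Igf1r*, *Igfbp2* and *Igfbp5* kept their call and direction in all 20 alternatives. Of the members, 3 were higher (1 in limma on log2 FPKM with a pseudocount of 0.1) and 5 lower (3 without an expression filter, 3 without DMSO replicates 2 and 4, 2 with replicates 1 and 3 alone). Leaving out 1 sample in turn gave 3 to 6 lower members, with 3 without CHIR99021 replicate 1, 3 or 4 and 6, with *Igf1* among them, without DMSO replicate 4. In either direction 48.7% of all genes were called in the main fit. The share was 38.2% without DMSO replicates 2 and 4 and 30.4% with replicates 1 and 3 alone. It was not computed for another filter, scaling, method or single left-out sample, so no result about the members is drawn from those shifts. The replicate block (pairing) gave 3 higher and 4 lower members, and among the members changed only the *Igfbp1* call. Of the pathway genes, 19 were higher (12 in limma on log2 FPKM with either pseudocount and 12 with replicates 1 and 3 alone) and 18 lower (28 in limma on log2 FPKM with a pseudocount of 1). The FPKM fits moved the median log2 fold change of all genes to -0.0998 (pseudocount 1) and -0.134 (pseudocount 0.1), and *Igf2bp1* reversed to -0.02 in both. *Igfbp3* and *Igfbp1* were lost without an expression filter (adjusted p of 0.0684 and 0.0676 in edgeR). *Igfbp4* was lost in the FPKM fits (adjusted p of 0.193 and 0.225 in limma) and *Igfbp7* in the one with 0.1 (0.0517). The summed binding protein level was 733 (DMSO) and 714 (CHIR99021) from TMM-scaled counts over length, against 767 and 680.1 in FPKM, and the groups overlapped only with TMM. At a mean of 2.12 CPM with CHIR99021, *Igfbp1* is the member that depth limits most.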
